A study of Homo sapiens with 9 samples.

Results

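The 10 genes described here encode the Rel family subunits of the transcription factor NF-kB (NFKB1, NFKB2, RELA, RELB and REL) and proteins that hold it in check or modify it: the IkB proteins NFKBIA, NFKBIB and NFKBIE, the ubiquitin-editing enzyme A20 (gene TNFAIP3) and the nuclear IkB protein BCL3. They were chosen by gene symbol, and all 10 were found once in each of the authors' deposited tables, among 13052 genes. The tables compare poly(A) RNA of XRCC1-KO cells and of APE1-KO cells with that of Control-KO cells, with 3 libraries in each group. All are MCF10A, a non-transformed human mammary epithelial line. Control-KO cells express Cas9, have a genotype labelled WT, and are the cells from which both knockouts were derived. XRCC1-KO cells were derived by targeting XRCC1, a scaffold protein of single-strand break repair, and APE1-KO cells by targeting APE1 (gene APEX1), the endonuclease that cuts abasic sites. All cells grew with horse serum, EGF, insulin, cholera toxin and hydrocortisone, a glucocorticoid, and no inflammatory stimulus is named in the labels. The labels do not say whether a knockout was a single clone or a pool.

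NF-kB is a dimer of Rel family proteins that waits in the cytoplasm bound to an IkB protein. In the canonical pathway, receptors for tumour necrosis factor, interleukin-1 or microbial products activate the IKK kinases, the IkB protein is degraded, and dimers such as p50 with RelA enter the nucleus. In the non-canonical pathway, the NFKB2 precursor p100 is cut to p52, which pairs with RelB. Several of these genes are themselves NF-kB targets, so that their transcripts follow the activity of the pathway and, through newly made IkBα and A20, limit it. Inflammatory signalling after loss of XRCC1 is a theme of the series title, and each comparison asks how transcripts of this core circuit stand in a knockout.

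Each value per gene is the authors' estimate over 3 libraries a group. Single libraries were not analysed here, and their depth is unknown. The labels do not tie a group's libraries to separate cultures, and a p-value then covers the spread between libraries alone, which may be technical. APEX1 was lower in APE1-KO, at 35.4% of its Control-KO level (95% interval 31.4% to 39.8%), and was the 1 gene past an adjusted p of 0.05 in the authors' deposited table for APE1-KO. XRCC1 mRNA stood at 110% of the Control-KO level in the authors' deposited table for XRCC1-KO (interval 93.5% to 129%). The edit made in XRCC1 was not examined here, and a knockout need not lower a transcript. This level therefore checks nothing about the label. All 12 epithelial and basal markers of MCF10A were measured, at mean log2 CPM from 6.34 to 12.2. ESR1, the estrogen receptor gene, for which MCF10A is known as negative, was measured at a mean log2 CPM of 6.62 in the authors' deposited tables. Of 8 leukocyte markers 3 were measured, at log2 CPM from 0.25 to 4.38. The others, with the pan-leukocyte marker PTPRC, were not analysed here, and the part of such cells in any result was not tested.

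All 10 genes were detected, at a mean log2 CPM from 3.47 for NFKBIE to 6.79 for NFKB1 in the authors' deposited tables. Those tables give 1 mean over the libraries for each gene. The median over all genes was 4.88, and NFKBIE, BCL3 and RELB lay below it. Divided by the length of the principal transcript, NFKBIA, which encodes IkBα, had the highest level, at 6.11 log2 CPM per kilobase. It was followed by RELA at 4.88, NFKB1 at 4.76, NFKB2 at 4.70 and NFKBIB at 4.67 log2 CPM per kilobase, which lay close together. RELB stood at 3.17, TNFAIP3 at 2.96, BCL3 at 2.66, REL at 2.26 and NFKBIE at 2.10 log2 CPM per kilobase. With these lengths, the canonical subunits RelA and p50 thus had more transcript per length than c-Rel (REL) or RelB in these epithelial cells. The value of REL rests on a principal transcript of 11255 bases. Before division by length REL stood at a mean log2 CPM of 5.75, against 6.31 for RELA and 4.37 for RELB. Which transcript of a gene these cells use was not tested. No error can be given for these means, so neighbours in the order cannot be separated.

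None of the 10 genes passed an adjusted p of 0.05 in either knockout by the F test of the authors' deposited tables. In XRCC1-KO the same test called none of the 13052 genes (0% of them), and the lowest adjusted p among the 10 genes was 0.76. In APE1-KO it called 1 gene (0.00766%), and all 10 genes had an adjusted p of 1. At an unadjusted p under 0.05, none of the 10 was higher and 1, NFKB1, was lower in XRCC1-KO, where 3.26% of all genes were higher and 2.7% lower; NFKB1 was no longer below that threshold once fold changes were centred on the median gene or the trend with length and GC content was removed. In APE1-KO none was higher and none lower at that threshold, where 0.774% of all genes were higher and 0.674% lower. The values of the 10 genes lay on both sides of 0. In XRCC1-KO 7 were above and 3 below it, where 49.7% of all genes lay above (median log2 fold change 0.066, against -0.00085 over all genes). With the trend removed 5 were above and 5 below, with a median of 0.0013. In APE1-KO 2 were above 0 and 8 below it, where 49.5% of all genes lay above (median -0.044, against -0.00098 over all genes). With the trend removed 4 were above and 6 below, with a median of -0.06. Both comparisons share the Control-KO libraries. In bulk RNA, fewer cells that express a gene and less transcript per cell cannot be told apart.

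**Figure D1:**
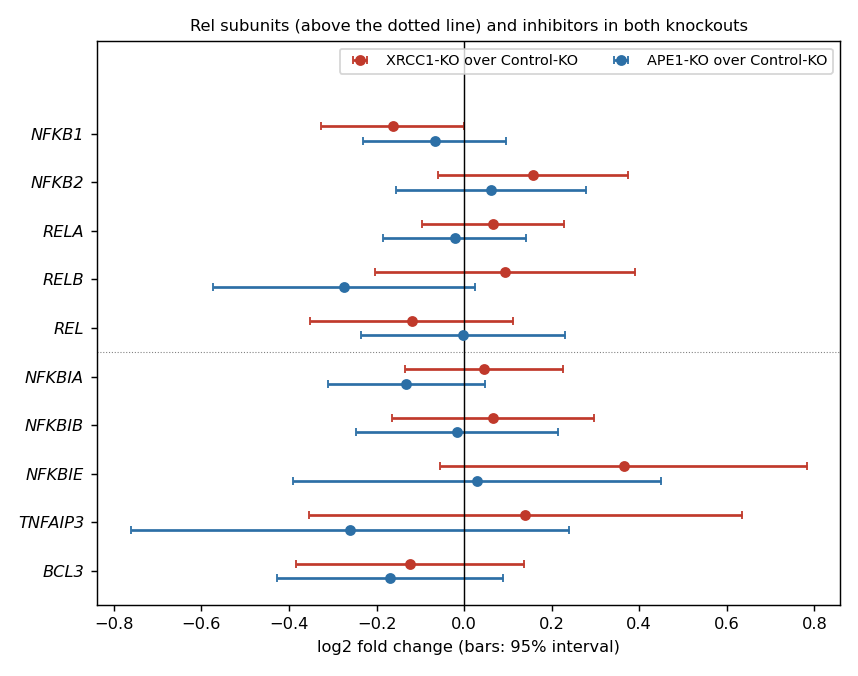
Log2 fold change of each gene (x axis) over Control-KO for XRCC1-KO (red, upper) and APE1-KO (blue, lower), with 95% intervals from recovered standard errors; each point is the authors' estimate over 3 libraries a group. The interval of NFKB1 in XRCC1-KO ends at the zero line and every other interval crosses it.

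Of the subunits, NFKB1, which encodes the precursor p105 of the canonical DNA-binding subunit p50, had the smallest p-value of the 10 genes in XRCC1-KO. Its log2 fold change there was -0.16 (SE 0.077), or 89.3% of the Control-KO level, with a 95% interval from 79.8% to 99.99% (unadjusted p = 0.0499, adjusted p = 0.76 by the authors' deposited table). With the trend removed it was -0.12. In APE1-KO it stood at 95.4% of the Control-KO level (interval 85.2% to 107%). NFKB2, the gene of the non-canonical precursor p100, lay on the other side of 0 in XRCC1-KO, at a log2 fold change of 0.16 or 111% of the Control-KO level (interval 96.0% to 130%, p = 0.143 in the authors' deposited table). In APE1-KO it stood at 104% (interval 89.8% to 121%). The precursor genes thus lay on opposite sides of Control-KO in XRCC1-KO, and neither passed.

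RELA, the main activating partner of p50, was among the most precisely measured of the 10 genes, with a standard error of 0.077 in both comparisons. It stood at 105% in XRCC1-KO (interval 93.5% to 117%, p = 0.403) and at 98.5% in APE1-KO (interval 88.0% to 110%, p = 0.785) of the Control-KO level by the authors' deposited tables. REL, the subunit best known from lymphocytes, stood at 92.0% in XRCC1-KO (interval 78.3% to 108%) and at 99.8% in APE1-KO (interval 85.0% to 117%). For REL in APE1-KO the F statistic was too close to 0 to give a standard error, and that of the XRCC1-KO comparison was taken.

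RELB, the partner of p52 and an NF-kB target itself, had the smallest p-value of the 10 genes in APE1-KO. Its log2 fold change there was -0.28 (SE 0.141), or 82.6% of the Control-KO level, with an interval from 67.2% to 102% (p = 0.069 with an adjusted value of 1, by the authors' deposited table for APE1-KO). In XRCC1-KO it lay on the other side of 0, at 107% (interval 86.8% to 131%). By unadjusted p, RELB stood at rank 287 of 13052 genes in APE1-KO and NFKB1 at rank 777 in XRCC1-KO. Evenly spread p-values would put 5% of genes under 0.05. In APE1-KO only 0.774% of genes were higher and 0.674% lower at that threshold, against 3.26% and 2.7% in XRCC1-KO. Small p-values were thus scarce in APE1-KO, and these ranks cannot be compared with each other.

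The inhibitors are the arm of the circuit that NF-kB induces to restrain itself. NFKBIA, whose product IkBα is resynthesised after each activation, stood at a log2 fold change of 0.045 in XRCC1-KO, or 103% of the Control-KO level (interval 91.1% to 117%, p = 0.601 in the authors' deposited table). In APE1-KO it stood at -0.13, or 91.3% (interval 80.6% to 103%, p = 0.139 in the authors' deposited table). These values lay on either side of the Control-KO level, and neither passed. With the trend removed both lay below it, at -0.031 in XRCC1-KO and -0.13 in APE1-KO. TNFAIP3, whose product A20 removes activating ubiquitin chains upstream of IKK, stood at 110% in XRCC1-KO (interval 78.2% to 155%) and 83.5% in APE1-KO (interval 59.0% to 118%). On the log2 scale its intervals are the widest of the 10 genes.

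NFKBIE, which encodes IkBε, an inhibitor that acts later than IkBα, had the largest log2 fold change of the 10 genes, 0.36 in XRCC1-KO (SE 0.197). This is 129% of the Control-KO level with an interval from 96.3% to 172% (p = 0.0835 with an adjusted value of 0.76, by the authors' deposited table for XRCC1-KO). In APE1-KO NFKBIE stood at 102% (interval 76.3% to 137%). NFKBIB, which encodes IkBβ and is not known for strong feedback induction, stood at 105% in XRCC1-KO (interval 89.3% to 123%) and 98.9% in APE1-KO (interval 84.3% to 116%). BCL3, a nuclear IkB protein that binds p50 and p52 homodimers and can activate or repress transcription, lay below Control-KO in both tables. It stood at 91.8% in XRCC1-KO (interval 76.6% to 110%, p = 0.326) and 88.9% in APE1-KO (interval 74.3% to 106%, p = 0.181) by the authors' deposited tables, which share their controls.

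The promoters are shown because feedback in this circuit runs through NF-kB sites in the promoters of its own genes. RefSeq promoters (GRCh38.p14, 250 bases before to 50 after an annotated start) were matched by symbol for 8 of the 10 genes, with 13 starts in all; RELB and NFKBIE had no entry. Both strands were searched for the kappaB consensus, the classical NF-kB site of 10 bases. A match stood in 7 of the 8 genes (87.5%) and in 8 of their 13 promoters (61.5%). Among the 10259 genes of the deposited tables with a promoter entry, 9.05% had a match, and 6.78% of their 15068 promoters held one. Of all 35116 RefSeq promoters, 5.91% held one. RELA was the gene without one in either of its 2 promoters. Of the target genes outside the 10, 14 of 35 (40%) had a match, and of the upstream genes 4 of 37 (10.8%). A looser pattern, GGGNNNNNCC, which takes in every match to the consensus, stood in all 13 promoters of these genes and in 71.7% of the promoters of genes in the tables, so it does not separate them. A match is a description of letters and not a site shown to be bound here.

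The proximal promoter of NFKBIA, 250 bases that end at the base before the annotated start, lies at chr14:35404750-35404999 on the minus strand. Capitals mark the match to the kappaB consensus, which reads on the strand opposite to the gene and begins 81 bases before the start.
NFKBIA: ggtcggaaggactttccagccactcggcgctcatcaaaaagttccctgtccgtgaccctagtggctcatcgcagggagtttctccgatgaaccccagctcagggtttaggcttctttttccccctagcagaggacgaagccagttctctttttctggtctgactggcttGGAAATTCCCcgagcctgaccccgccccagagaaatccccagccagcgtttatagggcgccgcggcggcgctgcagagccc

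The promoter of TNFAIP3 holds a pair of matches in a row, separated by 2 bases, at 67 and 55 bases before the start. These 250 bases lie at chr6:137867009-137867258 on the plus strand.
TNFAIP3: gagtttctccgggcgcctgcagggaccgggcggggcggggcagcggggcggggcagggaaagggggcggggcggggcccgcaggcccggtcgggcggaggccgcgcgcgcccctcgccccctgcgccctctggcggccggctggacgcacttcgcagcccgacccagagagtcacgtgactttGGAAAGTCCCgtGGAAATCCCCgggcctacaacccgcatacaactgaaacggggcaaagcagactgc

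Matches of the other genes are shown with 10 bases on either side. These stretches, read on the plus strand of GRCh38.p14 like the genes themselves, lie at chr4:102501300-102501329 for NFKB1, chr10:102394461-102394490 and chr10:102395674-102395703 for NFKB2, chr2:60881517-60881546 for REL, chr19:38899931-38899960 for NFKBIB and chr19:44748700-44748729 for BCL3. The match of BCL3 reads on the minus strand. The same decamer stands in capitals in NFKB1 and NFKBIB, and on the strand opposite to the gene in NFKBIA and, offset by 1 base from the match shown, in REL. The NFKB2 promoters hold matches with other letters, at 107 bases before start 2 and 21 bases before start 3. Further NFKB2 matches, at 106 and 78 bases before start 2 and 176 bases before start 3, are not printed. The match of BCL3 begins at base 3, with the annotated start counted as base 1.
NFKB1: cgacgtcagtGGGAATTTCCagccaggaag
NFKB2, start 2: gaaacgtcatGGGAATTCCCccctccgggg
NFKB2, start 3: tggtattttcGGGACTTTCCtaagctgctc
REL: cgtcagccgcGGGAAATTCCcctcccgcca
NFKBIB: gggcgtggtgGGGAATTTCCcgcagggcgg
BCL3: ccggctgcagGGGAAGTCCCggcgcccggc

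**Figure D2:**
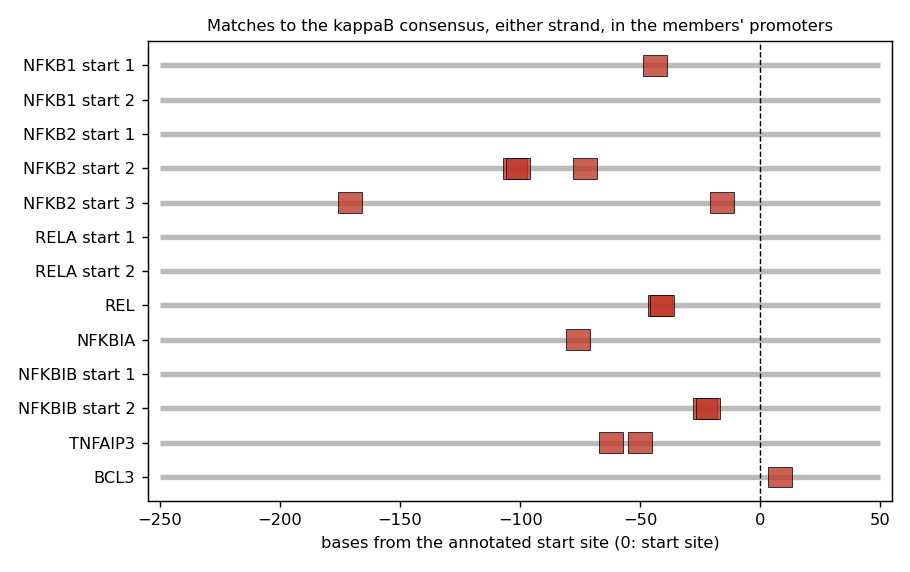
Positions of matches to the kappaB consensus on either strand (red boxes; overlapping boxes are matches offset by 1 base) along each RefSeq promoter (grey, 250 bases before to 50 after the start at 0; starts numbered by coordinate). Matches stand in 8 of 13 promoters, and all but that of BCL3 lie before the start.

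Values of the genes with a match lay on both sides of 0. Among the 7 genes with a match, the log2 fold change in XRCC1-KO ran from -0.16 for NFKB1 to 0.16 for NFKB2, and in APE1-KO from -0.26 for TNFAIP3 to 0.061 for NFKB2, by the authors' deposited tables. RELA, which has none, stood at 0.066 in XRCC1-KO and -0.021 in APE1-KO, inside both ranges. As a single gene it cannot show whether values differ with a match. NFKBIE, at 0.36 in XRCC1-KO, and RELB, at -0.28 in APE1-KO, lay outside these ranges but had no promoter entry.

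The direct comparison of the knockouts sets XRCC1-KO against APE1-KO, and the shared control libraries drop out of it. Over Control-KO, 8 of the 10 genes had a higher value in XRCC1-KO than in APE1-KO, and all 5 of the inhibitor genes with BCL3 did, as did 51.5% of all genes. With the trend of length and GC content removed, 7 of the 10 genes and 3 of the 5 did, since NFKBIB and BCL3 turned below 0 and REL above it. The median difference of the 10 genes was 0.091 log2, against 0.006 over all genes, and 0.035 with the trend removed. None passed (adjusted p = 1 for each, Benjamini-Hochberg over 13051 genes, where 1 gene or 0.00766% passed). None had an unadjusted p under 0.05 either, where 0.467% of all genes were higher and 0.268% lower. TNFAIP3 had the largest difference, 0.40 (interval -0.30 to 1.11), at 110% of the Control-KO level in XRCC1-KO and 83.5% in APE1-KO.

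RELB had the smallest p-value of the difference, with 0.37 (interval -0.054 to 0.79). That is a level 1.29-fold as high in XRCC1-KO as in APE1-KO. Its standard error leaves out the covariance from the shared controls and is therefore too wide rather than too narrow. With the covariance that 3 equally precise groups would give, RELB had an adjusted p of 0.73, and it was then the 1 gene of the 10 with an unadjusted p under 0.05; under that setting 2.77% of all genes were higher and 2.71% lower. With the trend removed the difference of RELB was 0.24, and TNFAIP3, at 0.46, then had the smallest p-value of the 10 genes, with none under 0.05. NFKBIE differed by 0.33 (interval -0.26 to 0.93) and NFKBIA by 0.18 (interval -0.077 to 0.43), which was 0.096 with the trend removed. The other subunits stood between -0.12 for REL (interval -0.45 to 0.21) and 0.096 for NFKB2 (interval -0.21 to 0.40).

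**Figure D3:**
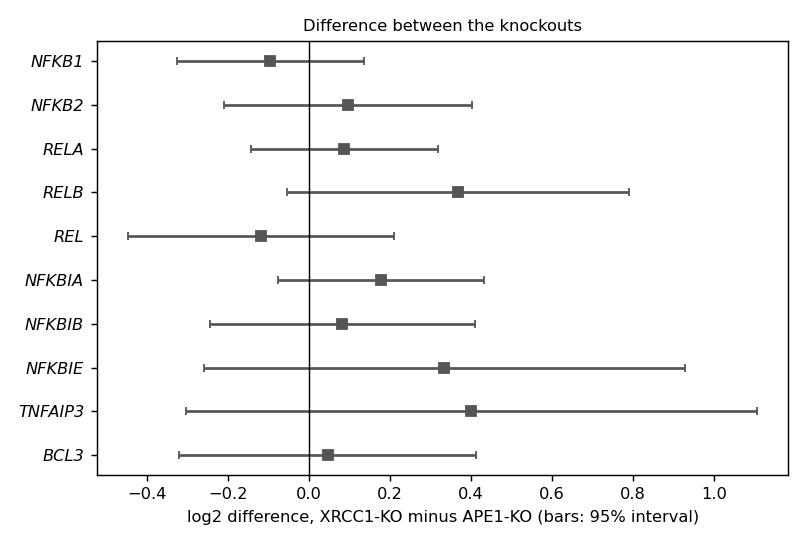
Difference of the log2 fold changes, XRCC1-KO minus APE1-KO (x axis), for each gene, with 95% intervals that take no covariance between the comparisons. All 10 intervals cross 0, and 8 of the 10 points lie above it, where 51.5% of all genes do.

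The 10 genes differed widely in how precisely they were measured. The standard error recovered for a gene reflects the spread between libraries of a group in the authors' fit, and that of the comparison with the larger F was set beside the 500 genes nearest in mean abundance. RELA had 0.838 times and NFKB1 0.86 times the median standard error of such genes. TNFAIP3 had 2.33 times, higher than 98.8% of the 500 genes, with a standard error of 0.235 against a median of 0.101. NFKBIE had 1.41 times and RELB 1.22 times that median, and the other genes lay between 0.905 and 1.15 times. TNFAIP3 was the 1 gene of the 10 above the 95th percentile of its neighbours in abundance.

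High standard errors were also found among NF-kB target genes outside the 10. Of 35 measured targets, 13 (37.1%) lay above that percentile. Of the upstream genes 3 of 38 (7.89%) did, and of the other negative regulators and atypical IkB proteins 1 of 19 (5.26%). By construction about 5% of all genes do. SOD2, the mitochondrial superoxide dismutase, had 3.12 times the median standard error of genes of its abundance, the acute phase gene SAA1 2.98 times, complement C3 2.75 times and the interleukin gene IL1B 2.65 times. Of the negative regulators and atypical IkB proteins, NFKBIZ, an inducible nuclear IkB protein, was the 1 gene above that percentile, at 2.72 times. A larger share of the target genes than of the other lists thus had high standard errors for their abundance, as TNFAIP3 did. What sets this spread was not tested.

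**Figure D4:**
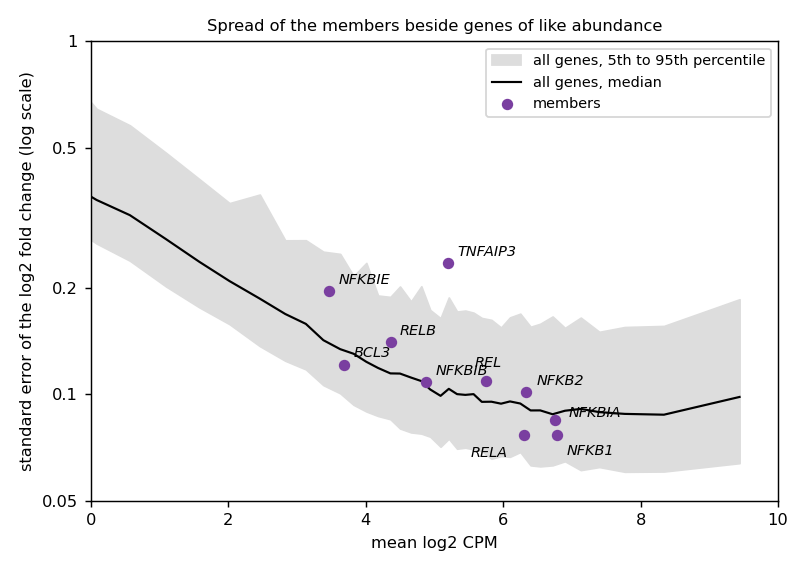
Standard error of the log2 fold change (y axis, log scale) against mean log2 CPM (x axis) for the 10 genes (purple), with the median (line) and the 5th to 95th percentile (grey) of all genes, shown from a mean log2 CPM of 0. TNFAIP3 lies above the grey band, at 0.235, while RELA and NFKB1 lie under the line.

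The genes upstream of the 10, from receptors to kinases and ubiquitin enzymes, showed no calls. Of 45 listed genes 38 were measured; the others, IKBKG, MAP3K14 and CD40 among them, were not analysed here. None passed an adjusted p of 0.05 in the authors' deposited tables. In XRCC1-KO 1 gene was higher at an unadjusted p under 0.05 and none lower, where 3.26% of all genes were higher and 2.7% lower. The median log2 fold change was -0.025, against -0.00085 over all genes, or -0.0044 with the trend removed. In APE1-KO none was higher and none lower, where 0.774% of all genes were higher and 0.674% lower. The median there was -0.03, against -0.00098 over all genes, or -0.016 with the trend removed. The gene with the smallest p-value was MAP3K8, the kinase TPL2 that binds p105, at 0.88 in the authors' deposited table for XRCC1-KO (p = 0.0191, adjusted p = 0.76), but at a mean log2 CPM of only 0.44. The kinase MAP3K7 (TAK1) stood at -0.13, the lymphotoxin receptor LTBR at 0.11 and the kinase TBK1 at -0.13 in that table. In the authors' deposited table for APE1-KO, the adaptor kinase IRAK2 stood at -0.32 (p = 0.107), the ubiquitin-conjugating cofactor UBE2V1 at 0.098, and the ubiquitin ligases BIRC2 and BIRC3 at 0.12 and -0.17. Between the knockouts the smallest p-values belonged to LTBR, with a difference of 0.17, the ubiquitin ligase subunit FBXW11, at -0.26, and the adaptor TRAF6, at -0.24.

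Among 19 measured negative regulators and atypical IkB proteins outside the 10, 2 were higher and none lower at an unadjusted p under 0.05 in XRCC1-KO, and 1 was higher and none lower in APE1-KO. Over all genes these shares were 3.26% and 2.7% in XRCC1-KO, and 0.774% and 0.674% in APE1-KO. None passed an adjusted p of 0.05 in the authors' deposited tables. Their median was 0.11 in XRCC1-KO and -0.011 in APE1-KO; with the trend removed it was 0.043 in XRCC1-KO and -0.0069 in APE1-KO. ZC3H12A, the ribonuclease Regnase-1 that degrades inflammatory mRNAs, stood at 0.27 in XRCC1-KO (p = 0.0116) and -0.15 in APE1-KO (p = 0.122) in the authors' deposited tables. Its difference of 0.42 (interval 0.14 to 0.70, adjusted p = 1) was the 1 difference of this list with an unadjusted p under 0.05. USP18, an interferon-induced deISGylase, stood above Control-KO in both, at 0.26 in XRCC1-KO (p = 0.0496) and 0.28 in APE1-KO (p = 0.0369) in the authors' deposited tables. The nuclear IkB protein NFKBID stood at 0.27 in XRCC1-KO and -0.10 in APE1-KO, and TNIP1, an A20-binding inhibitor, at 0.13 in XRCC1-KO and -0.14 in APE1-KO. The ubiquitin ligase PDLIM2 stood at 0.27 in the authors' deposited table for XRCC1-KO. TNIP3, another A20-binding protein, stood at -0.75 (mean log2 CPM 0.042) and TAX1BP1, an adaptor of A20, at 0.095 in the authors' deposited table for APE1-KO.

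Target genes outside the 10 lay mostly above Control-KO in XRCC1-KO and below it in APE1-KO, with no single call. Of 46 listed genes 35 were measured; the others, TNF, IL6, CCL2 and CXCL10 among them, were not analysed here. In XRCC1-KO 26 of the 35 lay above 0 (median 0.12), and 5 were higher and none lower at an unadjusted p under 0.05. Of all genes 49.7% lay above 0, 3.26% were higher and 2.7% lower. In APE1-KO 10 lay above and 25 below 0 (median -0.10), and none was higher and 3 lower at that threshold. Of all genes 49.5% lay above 0 there, 0.774% were higher and 0.674% lower. The difference between the knockouts had a median of 0.20, against 0.006 over all genes, with 31 of 35 above 0 and 2 at an unadjusted p under 0.05, both higher in XRCC1-KO; none passed. Of all genes 51.5% lay above 0, 0.467% were higher and 0.268% lower. Genes of a pathway are not independent replicates.

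In XRCC1-KO the smallest p-values among the targets belonged to the stress gene GADD45B at 0.38 (p = 0.0126), the chemokine CXCL3 at 1.4 (p = 0.0132, mean log2 CPM -0.90), the cytokine LIF at 0.71 (p = 0.0191) and IL1A at 0.31 (p = 0.0303) in the authors' deposited table, each with an adjusted p of 0.76. In APE1-KO they belonged to the neutrophil chemokines CXCL1 at -0.63 (p = 0.0118) and CXCL8 at -0.67 (p = 0.0256), the metalloproteinase MMP9 at -0.51 (p = 0.0457) and the growth factor CSF1 at -0.29 (p = 0.0561), each with an adjusted p of 1 in the authors' deposited table. Between the knockouts GADD45B differed by 0.52 (interval 0.12 to 0.92) and IL1A by 0.40 (interval 0.0069 to 0.80). The granulocyte factor CSF3 differed by 0.83 (interval -0.0074 to 1.67). CXCL1, CXCL8, MMP9 and CSF3 had standard errors above the 95th percentile of genes of like abundance. They stood at 1.94, 2.16, 2.31 and 2.69 times the median of such genes, in that order. The standard errors of GADD45B, CXCL3, LIF, IL1A and CSF1 lay below that percentile.

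**Figure D5:**
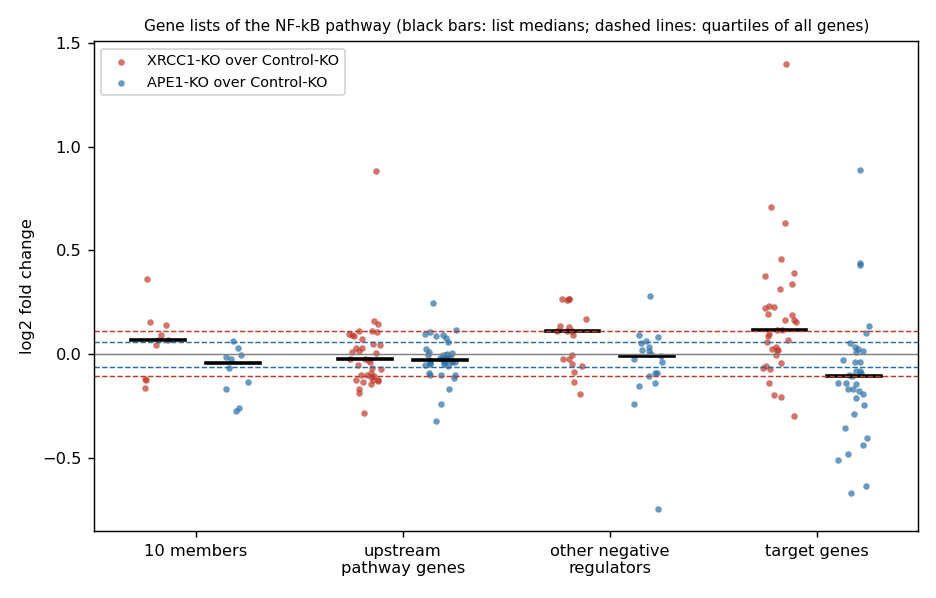
Log2 fold change over Control-KO (y axis) of the 10 genes, 38 upstream genes, 19 other negative regulators and atypical IkB proteins, and 35 target genes. XRCC1-KO is in red on the left and APE1-KO in blue on the right of each pair. Points are genes, black bars list medians, dashed lines the quartiles of all genes in the same colours. The bars of the targets stand at 0.12 in XRCC1-KO and -0.10 in APE1-KO.

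The 10 genes lie on 7 chromosomes, with RELB, NFKBIB and BCL3 on chromosome 19 and NFKBIE and TNFAIP3 on chromosome 6. On hg19, the build of the tables, RELB spans chromosome 19 from 45504688 to 45541452 on the plus strand and NFKB1 chromosome 4 from 103422486 to 103538459 on the plus strand. NFKBIA spans chromosome 14 from 35870717 to 35873955 and NFKBIE chromosome 6 from 44225903 to 44233500, both on the minus strand. Of the 21 tested genes that overlap or flank them, none passed an adjusted p of 0.05, and 2 in XRCC1-KO and none in APE1-KO had an unadjusted p under 0.05. Over all genes, 3.26% were higher and 2.7% lower at that threshold in XRCC1-KO, and 0.774% and 0.674% in APE1-KO. The 2 genes were SIPA1, beside RELA, at 0.29 and the proteasome subunit PSMA6, beside NFKBIA, at 0.16, in the authors' deposited table for XRCC1-KO. NFKBIB shares 163 bases with SIRT2 on the other strand. The libraries were prepared strand-specifically, but the sources used here do not state that counting used strand. Whether reads from those bases were told apart is therefore unknown. SIRT2 stood at 0.14 in XRCC1-KO and 0.059 in APE1-KO.

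Transcript length and base composition moved with the fold changes of XRCC1-KO, and the 10 genes are rich in G and C, with a median of 60.5% in their principal transcripts against 49.1% over all genes. With 11175 genes at or above a mean log2 CPM of 1 sorted into 10 length classes, the median for XRCC1-KO was 0.13 among the shortest transcripts and -0.092 among the longest. For APE1-KO these medians were 0.0047 and 0.034. Sorted by GC content instead, the median for XRCC1-KO was -0.077 in the lowest class and 0.079 in the highest. For APE1-KO it was 0.02 in the lowest class and -0.043 in the highest. The trend fitted on both properties gave NFKBIB 0.16 in XRCC1-KO, where 0.067 was measured, and NFKBIA 0.076, where 0.045 was measured. It gave REL, whose transcript of 11255 bases is the longest of the 10, -0.11, where -0.12 was measured. For NFKB1 the trend was -0.042, and with it removed the log2 fold change was -0.12, so NFKB1 then had no unadjusted p under 0.05. NFKBIE kept 0.31 of 0.36 in XRCC1-KO and RELB -0.22 of -0.28 in APE1-KO, and BCL3 in XRCC1-KO moved to -0.22.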

How the data were processed

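The 9 poly(A) libraries were prepared strand-specifically, per the labels' protocols. The submitters' processing notes name hg19, edgeR, Salmon 1.4.0 and Trim Galore, without order or settings. The deposited tables give, per the file headers, a log2 fold change, a mean log2 CPM, an F statistic (a score with no unit), p-values, false discovery rates and the −log10 of each p-value, for 13052 genes. How the authors filtered, normalised and modelled the genes was not stated in the sources used.

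Deposited p-values were readjusted with Benjamini-Hochberg, which gave the deposited rates to within 0.00223. A standard error was recovered by dividing the size of the log2 fold change by √F, or taken from the other comparison for F under 0.01. Degrees of freedom were solved for genes with F of at least 3, and their median, 15.2, served for the rest. Intervals use Student's t quantiles. The difference between the knockouts was tested two-sided over 13051 genes with no covariance, using Python 3.11.15 and SciPy 1.17.1; the code was tested on simulated data. Transcript length and GC content came from the longest principal transcript of a gene in GENCODE 29. Where a gene had none, its longest transcript of the basic set was taken, or else its longest of any kind. This gave a value for 12838 genes and all listed ones. A cubic trend with Huber weights was fitted over 11175 genes. Promoters came from RefSeq (GRCh38.p14).

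The 10 genes, the gene lists and the tests were chosen with earlier results of these data known. The naming rule takes the 10 genes, the targeted genes, up to 4 genes per list and comparison with the smallest unadjusted p-values, 3 for the difference, and genes that overlap or flank the 10, of which those with an unadjusted p under 0.05 are named, with the overlapping one. Genes named for their spread, ESR1, PTPRC and the genes not analysed here were picked with their values in view. The transcript used for length was also chosen after seeing the data.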

Additional observations from a re-analysis of the deposited data

How the results depend on the processing

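No paired analysis was possible because values per library were not analysed here, and leaving out each replicate was not run for the same reason. Under every alternative tried (adjusting over genes at or above a mean log2 CPM of 1 or of 3, Benjamini-Yekutieli adjustment, centring on the median gene, removing the trend of transcript length and GC content, the covariance of the difference, and 1 value for the degrees of freedom), none of the 10 genes passed an adjusted p of 0.05. Their adjusted p-values ran from 0.713 to 1 in XRCC1-KO, were 1 after rounding in APE1-KO, and ran from 0.73 to 1 for the difference. Centring moved the median by 0.01 or less (log2) and turned no sign, but left NFKB1 in XRCC1-KO without an unadjusted p under 0.05. Removing the trend turned 7 of the 30 log2 values, none of them called. In XRCC1-KO NFKBIA became -0.031 and NFKBIB -0.089, and in APE1-KO RELA became 0.0092 and NFKBIB 0.011. For the difference, REL became 0.044, NFKBIB -0.10 and BCL3 -0.11, which left 7 of the 10 genes and 3 of the 5 inhibitor genes with BCL3 above 0. The medians of the target genes became 0.11 in XRCC1-KO, -0.13 in APE1-KO and 0.20 for the difference. In XRCC1-KO the median of the 10 genes became 0.0013, against 0.066. That of the other negative regulators and atypical IkB proteins in XRCC1-KO became 0.043, against 0.11. MAP3K8 was the upstream gene lost when genes under a mean log2 CPM of 1 were left out. The spread between libraries limits what can be seen: the intervals of NFKBIE, TNFAIP3 and RELB allow changes that those of RELA, NFKB1 and NFKBIA do not.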
